A study of Homo sapiens with 2 samples.

Results

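Methionine salvage recycles the sulfur and methyl group of methylthioadenosine (MTA), a by-product of polyamine synthesis, back to methionine. Expression of its first enzyme, MTAP, of the genes CDKN2A and CDKN2B that lie beside MTAP on chromosome 9p21, and of the enzymes that follow MTAP, namely MRI1, APIP, ENOPH1 and ADI1, was examined in methionine-dependent and revertant MDA-MB-231 cells. These 7 genes were found by symbol among the 36601 genes listed in the count matrices, and each symbol matched a single gene. The rule that picked them uses symbols and no measured value, but it was written with earlier results of these data known.

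Parental cells (D0), maintained in custom-made RPMI medium with 100 µM methionine, gave 1 single-cell library, and revertant cells (D21), cultured for 21 days in RPMI medium that lacked methionine and held 100 µM homocysteine and 1.5 µM vitamin B12 (cyanocobalamin), gave 1 library. Both media held dialyzed, heat-inactivated fetal bovine serum, and how much vitamin B12 the D0 medium held is not stated for these cells. MDA-MB-231 is a triple-negative breast cancer line of mesenchymal appearance, so both groups are the same established line, and the D21 cells are those that came through long-term culture. With 1 library per condition, a difference between the libraries cannot be told apart from a difference between cultures, no test of the condition is possible, and the 95% intervals given here cover counting error only.

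Transcripts were counted from their 3′ end by unique molecular identifiers (UMIs), so each transcript copy counts once whatever its length. Barcodes with at least 9009 UMIs at D0 or 5422 UMIs at D21, 500 or more detected genes and no more than 20% mitochondrial UMIs were taken as cells. They numbered 7492 at D0 and 12487 at D21, with 183098116 and 182839048 UMIs in all. The median cell held 18908 UMIs at D0 and 12022 UMIs at D21, and 21 cell barcodes occurred in both libraries. Levels are CPM, a gene's UMIs summed over the cells of a library and scaled to a total of 1e6 UMIs of all genes. The line's markers were present, with VIM, the intermediate filament of mesenchymal cells, at 4157 CPM (D0) and 2876 CPM (D21), and KRT18, an epithelial keratin, at 858 CPM and 885 CPM. The oestrogen receptor gene ESR1 was at 0.197 CPM and 0.377 CPM, and the progesterone receptor gene PGR at 0.02 CPM and 0.05 CPM. ERBB2, which encodes the receptor HER2, was higher, at 11.8 CPM and 10.2 CPM. EPCAM, an epithelial gene, was at 9.46 CPM and 10.1 CPM. Of 18 genes of other lineages, such as liver, blood and heart, 13 had 5 or fewer UMIs over both libraries, and their sum was 1.99 CPM (D0) and 1.64 CPM (D21). Of 6 fibroblast genes, the summed level was 3.05 CPM and 1.91 CPM.

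As background, MTAP splits MTA into adenine and methylthioribose 1-phosphate. MRI1 isomerizes the sugar phosphate, APIP removes water from the product, ENOPH1 turns the next intermediate into an acireductone in an enolase and phosphatase reaction, and ADI1 oxidizes the acireductone to the keto acid of methionine, to which a transaminase adds the amino group. The 9p21 genes CDKN2A and CDKN2B encode inhibitors of the cyclin D kinases (p16INK4a and p15INK4b), and CDKN2A also encodes p14ARF, which stabilizes p53. MTAP is often lost together with its neighbours in tumours, and cells without MTAP accumulate MTA, which inhibits the arginine methyltransferase PRMT5.

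The promoter stretches of 3 genes are shown to set genes of different readout side by side: MTAP, the first enzyme, with hardly a transcript, MRI1, the least expressed enzyme of the later steps, and ENOPH1, whose ratio between the libraries lay furthest from 1 among the 4 later enzymes. They are the reference sequence from RefSeq (GRCh38.p14, plus strand, sense to the gene), read 5′ to 3′ and ending before the first annotated transcript base. They say nothing of the DNA of these cells. Capitals mark motif matches, searched on both strands. The GC box is GGGCGG, and it appears as its complement, which begins with CCG, where it lies on the other strand. The CCAAT box is named by its letters. The TATA box searched for was TATAAA, and none of these motifs overlapped in the stretches shown. The E-box was CACGTG, which reads alike on both strands.
MTAP, chr9:21802386-21802542: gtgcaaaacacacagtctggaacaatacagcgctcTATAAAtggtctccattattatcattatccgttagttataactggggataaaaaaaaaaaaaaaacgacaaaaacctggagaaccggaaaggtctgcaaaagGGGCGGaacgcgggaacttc
MRI1, chr19:13764272-13764521: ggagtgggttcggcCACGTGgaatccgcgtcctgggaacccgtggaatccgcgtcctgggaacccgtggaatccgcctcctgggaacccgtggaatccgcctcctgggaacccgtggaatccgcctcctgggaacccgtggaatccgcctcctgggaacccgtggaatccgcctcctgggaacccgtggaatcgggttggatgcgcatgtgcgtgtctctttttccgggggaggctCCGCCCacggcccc
ENOPH1, chr4:82430340-82430561: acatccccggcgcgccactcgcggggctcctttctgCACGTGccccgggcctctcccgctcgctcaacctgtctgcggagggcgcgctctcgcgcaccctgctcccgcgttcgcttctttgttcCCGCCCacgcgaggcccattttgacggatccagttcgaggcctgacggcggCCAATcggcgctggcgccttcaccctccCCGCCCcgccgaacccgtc

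The MTAP stretch held 40.8% G and C, the MRI1 stretch 66.8% and the ENOPH1 stretch 71.6%. The MRI1 stretch is built largely of a repeat, in which a 20-base unit occurred in 7 exact copies. Over the 250 bases before the RefSeq start, a GC box was found in 6 of the 7 genes and in 42.3% of 27305 promoters, and a CCAAT box in 3 of the 7 genes and in 33% of promoters. A TATA box was found in MTAP alone among the 7 genes and in 11.1% of promoters. An E-box was found in MRI1, ENOPH1 and ADI1, so in 3 of the 4 later enzymes and in none of the 3 genes at 9p21, and in 6.49% of promoters. The same windows held 11 CpG dinucleotides for MTAP, the median of all promoters, and between 18 and 33 for the other 6 genes. No window of the 7 genes held a cAMP response element (TGACGTCA) or the palindromic NRF1 site, found in 1.77% and 1.13% of promoters. These matches are a description of letters, not of sites in use. The windows of MTAP, CDKN2B, APIP, ENOPH1 and ADI1 reached into transcripts annotated by GENCODE, by between 28 and 205 bases.

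MTAP was close to absent from both libraries. MTAP (ENSG00000099810; GRCh38, chromosome 9, 21802543 to 21937651, plus strand) had 1 UMI among the D0 cells and 4 UMIs among the D21 cells. This corresponds to 0.00546 CPM at D0 (interval 0.000138 to 0.0304) and 0.0219 CPM at D21 (0.00596 to 0.056). The D21 over D0 ratio of 4.01 has an interval from 0.396 to 197, so no difference was detectable at this depth.

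Each MTAP UMI was in a different cell. The D0 cell held 29620 UMIs, and the D21 cells held 23160, 18034, 13734 and 10424 UMIs. The 5 cells make up 0.025% of the 19979 cells (0.00813 to 0.0584%), and no cell held 2 MTAP UMIs. Counting every barcode, empty droplets included, the number was 1 UMI at D0 and 5 UMIs at D21.

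CDKN2A (ENSG00000147889; chromosome 9, 21967753 to 21995301, minus strand), whose span begins 30.1 kb beyond MTAP, had no UMI in the cells of either library. CDKN2B (ENSG00000147883; chromosome 9, 22002903 to 22009363, minus strand), 7.6 kb further on, had none either. A count of 0 allows up to 3 UMIs as a limit on 1 side, which is 0.0164 CPM in each library. By that limit, up to 0.04% of D0 cells and 0.024% of D21 cells could hold a UMI. The interval on both sides, as given for MTAP, is wider and ends at 0.02 CPM in each library, and at 0.0492% of D0 cells and 0.0295% of D21 cells. Outside the cells, CDKN2A had 1 UMI in a D0 barcode of fewer than 100 UMIs, and CDKN2B had none. The 3 genes together thus had 5 UMIs among 365937164 UMIs in cells, and 7 among 399616660 UMIs over all barcodes.

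So few UMIs are not rare among listed genes. Of the 36601 genes, 11177 (30.5%) had 5 or fewer UMIs over the cells of both libraries, and 6538 of these had none. Most genes of other lineages were at that level too. MTAP, unlike those, is a gene that most cell types transcribe. RNA counts cannot tell a gene that is missing from the genome from a gene that is present and silent, and genome copy number was not measured here. An antisense gene, AL359922.2, shares 257 exonic bases with MTAP on the opposite strand, and it had 1 UMI at D0 and none at D21. CDKN2B-AS1, an antisense RNA that begins inside CDKN2A and runs past CDKN2B, had 3 UMIs at D0 and 2 UMIs at D21.

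Low counts were not confined to the 3 genes. Within 5 Mb of the MTAP start on either side, 67 listed genes were annotated, 38 of them protein coding, and 12 had at least 1 CPM. None of those 12 lay between FOCAD and TUSC1. This stretch, delimited by its flanking genes with at least 1 CPM, runs from the end of FOCAD at 20995955, 0.807 Mb before the MTAP start, to TUSC1 at 25676389, 3.87 Mb after the MTAP start. It covers 4.68 Mb and 39 genes, of which 24 are protein coding. In it, 12 UMIs were counted at D0 and 17 UMIs at D21. No UMI was found for 32 of the 39 genes, and the highest level was 0.0273 CPM, of the long non-coding RNA AL391117.1. Between CDKN2B and TUSC1, the long side of the stretch, the only protein coding genes are DMRTA1, ELAVL2 and IZUMO3. ELAVL2 had 1 UMI at D0 and 2 UMIs at D21, and the others had none. The last 1.13 Mb, from IZUMO3 to TUSC1, holds no protein coding gene. The length of the stretch on that side thus rests on few genes, and whether such cells usually transcribe them was not tested.

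Interferon genes, which are silent in most unstimulated cells, make up 16 of the 24 protein coding genes in the stretch. The other 8 are of other families. HACD4, a dehydratase of very long chain fatty acid synthesis, begins 3.56 kb beyond FOCAD and had no UMI in cells. KLHL9, a substrate adaptor of a ubiquitin ligase, and the non-coding MIR31HG, host transcript of miR-31, had none either. These 3 genes were picked out after their values were seen.

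On the side before MTAP, the nearest genes outside the stretch with at least 1 CPM were FOCAD and MLLT3. FOCAD, which encodes focadhesin, was at 29.2 CPM (D0) and 32.9 CPM (D21), and MLLT3, a subunit of the super elongation complex, was at 32.8 CPM and 28.2 CPM. Further out on that side were RPS6, a protein of the small ribosomal subunit, at 1598 CPM and 1528 CPM, and PLIN2, a lipid droplet coat protein, at 67.7 CPM and 56.7 CPM. RRAGA, a Rag GTPase of amino acid sensing, was at 56.5 CPM and 40.9 CPM.

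DENND4C (31.4 CPM and 32.9 CPM) and HAUS6 (27.9 CPM and 31.8 CPM), an exchange factor for Rab GTPases and a subunit of augmin, were close to FOCAD in level. ADAMTSL1, a secreted matrix protein, was at 51 CPM and 36.9 CPM. SAXO1 was at 1.98 CPM and 1.85 CPM and ACER2, an alkaline ceramidase, at 1.27 CPM and 1.24 CPM. On the other side, TUSC1 was at 14.2 CPM and 11.2 CPM and the non-coding AL353753.1 at 13.6 CPM and 15.4 CPM. Because the stretch was delimited by the nearest genes with at least 1 CPM, the absence of such a gene within it follows from its definition. In the rest of the window, 10 of the 23 genes before it and 2 of the 5 after it reached that level. Protein coding genes outside the stretch were also low. CNTLN was at 0.0273 CPM and 0.0164 CPM, SH3GL2 at 0.00546 CPM and 0.0109 CPM and SLC24A2 at 0.109 CPM and 0.17 CPM.

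Gaps of this length are uncommon but not unique. Between neighbouring genes with at least 1 CPM, 11025 gaps were found over all chromosomes, with a median length of 0.0269 Mb. Of these, 36 were at least as long as the gap around MTAP and 12 held at least as many protein coding genes, and 2 met both, each count including the gap around MTAP itself. Positions came from GENCODE release 29, in which 34616 of the 36601 gene identifiers were found, so the order of genes may differ slightly from that of the annotation behind the counts.

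The 4 enzymes that act after MTAP were all expressed. MRI1 (ENSG00000037757; chromosome 19, 13764532 to 13774282, plus strand), the isomerase, had 1674 UMIs at D0 and 1646 UMIs at D21. Its level was 9.14 CPM (8.71 to 9.59) and 9 CPM (8.57 to 9.45). The ratio of D21 over D0 was 0.985 (0.919 to 1.05), so the libraries did not differ in MRI1 beyond counting error. MRI1 counts are less certain than the others, because the last 115 exonic bases at its 3′ end, the end that is read, are shared on the same strand with C19orf53, which was at 283 CPM and 327 CPM.

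APIP (ENSG00000149089; chromosome 11, 34853094 to 34916499, minus strand), the dehydratase, had 10869 UMIs and 11105 UMIs. Its level was 59.4 CPM (58.3 to 60.5) at D0 and 60.7 CPM (59.6 to 61.9) at D21. The ratio was 1.02 (0.996 to 1.05), and the intervals of the libraries overlapped. PDHX shares 259 exonic bases with APIP on the opposite strand, far from the 3′ end of APIP, and was at 31.5 CPM and 29.6 CPM.

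ENOPH1 (ENSG00000145293; chromosome 4, 82430562 to 82461091, plus strand), the enolase-phosphatase, had 8876 UMIs and 9788 UMIs. Its level was 48.5 CPM (47.5 to 49.5) at D0 and 53.5 CPM (52.5 to 54.6) at D21. The ratio was 1.1 (1.07 to 1.14), higher at D21 by more than counting error, by 10.4%. This was not so in cells thinned to 5000 UMIs, where the ratio was 1.02 (0.965 to 1.08) from 1859 UMIs at D0 and 3166 UMIs at D21.

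ADI1 (ENSG00000182551; chromosome 2, 3497361 to 3519736, minus strand), the dioxygenase, had the most UMIs of the 4, with 23602 at D0 and 24926 at D21. Its level was 129 CPM (127 to 131) at D0 and 136 CPM (135 to 138) at D21. The ratio was 1.06 (1.04 to 1.08), which also lies above counting error.

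The order of the levels was the same in both libraries, with ADI1 highest, then APIP, ENOPH1 and MRI1, and MTAP, CDKN2A and CDKN2B far below. The intervals of neighbours among ADI1, APIP, ENOPH1 and MRI1 did not overlap in either library. The intervals of MTAP, CDKN2A and CDKN2B did overlap. Summed, the 4 enzymes made up 246 CPM at D0 and 260 CPM at D21, of which ADI1 gave 52.4% and 52.5%. Among genes with a UMI at D0, MRI1 lay at percentile 67.6 by level, ENOPH1 at 87.8, APIP at 89.9 and ADI1 at 95.7.

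By size, none of the differences was large. A fold of 1.5, among genes that reached 20 CPM in a library or in both, was passed by 1.12% of 6867 genes upward and 3.47% downward, 4.59% in all, and by 0 of the 3 salvage enzymes at that level (APIP, ENOPH1 and ADI1). The median log2 ratio of these 3 enzymes was 0.08, beside -0.003 for all 6867 genes, and for the 4 enzymes with MRI1 it was 0.06. Of the 6867 genes, 52.6% lay at least as far from a ratio of 1 as ENOPH1 and 72.2% at least as far as ADI1. For APIP the share was 88.5% and for MRI1 92.5%.

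Detection in single cells followed depth. An ADI1 UMI was found in 86.9% of D0 cells (86.1 to 87.7%) and 76.9% of D21 cells (76.2 to 77.7%), and an APIP UMI in 66.2% and 52.3%. For ENOPH1 the shares were 60.2% and 47.9%, and for MRI1 18.5% and 11.9%. The D21 cells held fewer UMIs each, and after every cell was thinned to 5000 UMIs the shares were closer. They were 24.5% and 24.9% for APIP and 21.5% and 21.9% for ENOPH1. For ADI1 they were 46% (44.8 to 47.1%) at D0 and 48.1% (47.3 to 49%) at D21, with intervals that did not overlap. For MRI1 the thinned shares were 3.96% and 4.56%, against the order of its CPM, so no direction is read from them.

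Barcodes with fewer than 100 UMIs, whose median was 1 UMI, give a view of RNA outside cells. In them ADI1 was at 126 CPM (D0) and 154 CPM (D21), APIP at 58 CPM and 60.7 CPM, ENOPH1 at 47.4 CPM and 56.7 CPM and MRI1 at 9.2 CPM and 7.98 CPM. The share of such barcodes with a UMI was at most 0.0534%, for ADI1 at D21.

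The variance over cells was between 1.03 and 1.38 times the value expected from counting at each cell's depth, lowest for MRI1 at D21 and highest for ADI1 at D0. This ratio stays near 1 for a gene with few UMIs per cell, whether or not cells differ. MRI1 had no UMI in 88.1% of D21 cells and ADI1 had none in 13.1% of D0 cells. The ratio therefore does not rank the enzymes by how much cells differ in them. A D0 cell with 36149 UMIs held 16 MRI1 UMIs, while no other D0 cell held more than 6 and no D21 cell more than 4. No gene among the 6867 reached a mean correlation over both libraries of 0.2 with APIP, ENOPH1 or ADI1 across cells, so none is named as alike. The highest mean correlation was 0.183, between ENOPH1 and HNRNPAB, which binds RNA, over 7492 and 12487 cells that share library and depth. Between pairs of the 3 enzymes it was at most 0.0363.

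APIP and ENOPH1 levels were higher in cells with more UMIs in both libraries, and MRI1 and ADI1 levels at D0. Cells of each library were ranked by UMIs in 4 bins of equal size. From the lowest to the highest bin, APIP went from 49.8 CPM to 62.5 CPM at D0 (ratio 1.26, 1.18 to 1.34) and from 55 CPM to 63.1 CPM at D21 (1.15, 1.08 to 1.22). ENOPH1 went from 44.5 CPM to 48.8 CPM at D0 (1.095, 1.02 to 1.175) and from 45 CPM to 56.5 CPM at D21 (1.26, 1.17 to 1.35). At D0 the ratio was 1.19 (1.01 to 1.4) for MRI1 and 1.07 (1.02 to 1.115) for ADI1. At D21 their intervals included 1, with ratios of 0.979 (0.837 to 1.15) and 1.04 (0.996 to 1.08).

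The D21 over D0 ratio of ENOPH1 differed along these bins, at 1.01, 1.04, 1.09 and 1.16 from lowest to highest. The intervals of the lower bins, 0.923 to 1.1 and 0.971 to 1.12, included 1, and those of the upper bins, 1.03 to 1.15 and 1.11 to 1.21, did not. The bins hold cells of different depth in the 2 libraries, the median cell of the highest bin holding 40876 UMIs (D0) or 24107 UMIs (D21), and the part of depth in this pattern was not tested. The MRI1 ratio went the other way, at 1.13, 1.02, 0.996 and 0.936 from lowest to highest bin. Each of its intervals included 1, and a trend between bins was not tested. The ADI1 ratio lay between 1.05 and 1.08 in the 4 bins, and the APIP ratio between 1.01 and 1.1. The APIP interval excluded 1 in the lowest bin only (1.02 to 1.2).

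ENOPH1 varied with S phase genes. In the 20% of cells with the highest share of 12 S phase genes, such as MCM2 and PCNA, ENOPH1 was at 60.6 CPM at D0, against 45.4 CPM in the other cells (ratio 1.34, 1.27 to 1.4). At D21 it was at 65.1 CPM against 50.6 CPM (1.29, 1.23 to 1.35). The difference had the same direction in both libraries and, among the 4 enzymes, was furthest from 1 for ENOPH1 in each. For APIP the ratio was 1.11 in each library and for ADI1 1.06 at D0 and 1.09 at D21. These cells were deeper, with medians of 21041 UMIs against 18243 at D0 and 12716 against 11815 at D21, and the part of depth was not tested.

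In the 20% of cells with the highest share of 12 G2/M genes, APIP and MRI1 differed from the other cells in the same direction in both libraries. APIP was higher there (1.09 at D0 and 1.1 at D21, with intervals above 1), and MRI1 was lower in both (0.885, 0.784 to 0.998, and 0.812, 0.716 to 0.918). ENOPH1 was at 0.932 (0.886 to 0.981) at D0 and 1.05 (1 to 1.1) at D21, on opposite sides of 1. For ADI1 the ratio was 0.971 at D0 and 1.01 at D21, with intervals that included 1. Cells high in G2/M genes were deeper, with medians of 22277 UMIs against 18105 at D0 and 14418 against 11571 at D21. The part of depth in these ratios was not tested.

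The line holds cells marked by AGR2, SPANXB1 and SOX4 and cells marked by CEMIP, SAA1 and SAA2. Cells were split by which of these sets had more UMIs. The AGR2 set was ahead in 65% of D0 cells and 35% of D21 cells, and the CEMIP set in 26.6% and 53.6%. The difference between the sets was 2 UMIs or less in 23% of D0 cells and 31.2% of D21 cells, and the sides of the split are not called cell types here. The sets themselves differed between the libraries, with a summed level of 533 CPM at D0 and 251 CPM at D21 for the AGR2 set and 269 CPM and 723 CPM for the CEMIP set.

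APIP and ADI1 were higher where the CEMIP set was ahead, by a ratio of 1.14 in each library for APIP and of 1.11 (D0) and 1.13 (D21) for ADI1, all with intervals above 1. The APIP level was 56.2 CPM against 64.1 CPM at D0 and 55.5 CPM against 63.4 CPM at D21. ENOPH1 was at 0.934 (0.892 to 0.978) at D0 and 1.03 (0.982 to 1.07) at D21. Where the CEMIP set was ahead, the median cell held 24166 UMIs against 17433 at D0 and 13755 against 10630 at D21, and the part of depth was not tested.

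Within each side of the split, D21 and D0 were closer for 2 enzymes than over all cells. The ADI1 ratio of D21 over D0 was 1.01 (0.983 to 1.04) where the AGR2 set was ahead. It was 1.03 (1.001 to 1.056) where the CEMIP set was ahead, against 1.06 over all cells. APIP was at 0.988 (0.946 to 1.03) and 0.989 (0.951 to 1.03), against 1.02 (0.996 to 1.05) over all cells. Each APIP interval included 1, so its values did not differ beyond counting error. The part of the split in the ratios over all cells was not tested. ENOPH1 stayed above 1 on both sides, at 1.06 (1.02 to 1.11) and 1.17 (1.12 to 1.22).

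MRI1 behaved differently in the 2 libraries. At D0 it was at 10.7 CPM where the CEMIP set was ahead and 8.16 CPM where the AGR2 set was ahead (ratio 1.32, 1.19 to 1.46), and at D21 at 8.76 CPM and 8.99 CPM (0.974, 0.875 to 1.09). Likewise, the ratio for the cells high in S phase genes was 1.26 (1.13 to 1.41) at D0 and 0.909 (0.8 to 1.03) at D21. The D21 over D0 ratio of MRI1 was therefore 0.816 (0.738 to 0.903) in cells with the CEMIP set ahead and 1.1 (0.987 to 1.23) in cells with the AGR2 set ahead. In cells high in S phase genes it was 0.761 (0.654 to 0.884), and in the other cells 1.06 (0.978 to 1.14). These differences between libraries were not tested, and MRI1 had between 306 and 1340 UMIs in each of these groups of cells.

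Genes of the connected pathways were measured as well. Of 47 genes in 7 lists, 32 had at least 20 CPM, and of these 1 was higher past the fold of 1.5 and 0 were lower, beside 1.12% and 3.47% of all genes tested. The median log2 ratio over the 32 genes was -0.07.

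The enzymes that make MTA and polyamines were all 6 well expressed. The gene past the fold was ODC1, ornithine decarboxylase, the first enzyme of polyamine synthesis, at 164 CPM (D0) and 249 CPM (D21). Its ratio of 1.52 has an interval of 1.5 to 1.54, which reaches the fold itself. MAT2A, the catalytic subunit of methionine adenosyltransferase, was at 51.6 CPM and 74.1 CPM (1.44, 1.4 to 1.48), and its regulatory subunit MAT2B at 33.9 CPM and 32.7 CPM. AMD1, which decarboxylates S-adenosylmethionine, was at 61.6 CPM and 42.5 CPM (0.689, 0.67 to 0.71), and SRM, spermidine synthase, which releases MTA, at 252 CPM and 296 CPM (1.18, 1.16 to 1.19). SMS, spermine synthase, which also releases MTA and was the highest of the 6 genes, lay on the other side of 1, at 440 CPM and 334 CPM (0.76, 0.752 to 0.768).

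In the methionine cycle, 2 of 7 genes had at least 20 CPM. MTR, methionine synthase, was at 34.4 CPM and 31 CPM (0.901, 0.87 to 0.935), and MTRR, which reactivates it, at 17.1 CPM and 16.9 CPM. AHCY, which splits S-adenosylhomocysteine, was at 75.2 CPM and 61 CPM (0.812, 0.792 to 0.832). BHMT, which methylates homocysteine from betaine, was at 0.0546 CPM and 0.12 CPM.

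Of the transaminases that can carry out the last salvage step, 6 of 8 had at least 20 CPM. GOT1 was at 47 CPM and 42.7 CPM, GOT2 at 43.8 CPM and 54.3 CPM (1.24, 1.21 to 1.28), BCAT1 at 75.1 CPM and 82.1 CPM and BCAT2 at 35.2 CPM and 31.8 CPM. The cytosolic and mitochondrial aspartate transaminases, GOT1 and GOT2, thus lay on opposite sides of 1.

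The adenine that MTAP releases is taken up by purine salvage, for which 4 of 5 genes had at least 20 CPM. APRT, which turns adenine into AMP, was at 227 CPM and 248 CPM (1.1, 1.08 to 1.11), and ADK, adenosine kinase, at 260 CPM and 273 CPM. HPRT1 was at 88.4 CPM and 73.1 CPM, and PNP, a phosphorylase akin to MTAP that acts on inosine and guanosine, at 43.2 CPM and 41.1 CPM.

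PRMT5 was at 36 CPM and 36.7 CPM (1.02, 0.985 to 1.05) and its partner WDR77 at 15.3 CPM and 16.4 CPM. The adaptors CLNS1A and RIOK1 were at 131.5 CPM and 114 CPM and at 44.8 CPM and 50 CPM.

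The relatives of CDKN2A and CDKN2B on other chromosomes were expressed. CDKN2C (p18INK4c) was at 31.8 CPM and 21.9 CPM (0.689, 0.662 to 0.717) and CDKN2D (p19INK4d) at 65.9 CPM and 48.6 CPM (0.738, 0.718 to 0.759). Both were lower at D21 by more than counting error but within the fold of 1.5, which the interval of CDKN2C crosses. Of the CIP inhibitors, a separate family, CDKN1A (p21) was at 61.8 CPM and 56.8 CPM and CDKN1B (p27) at 18.9 CPM and 17.5 CPM. Of the cyclin D kinases, CDK4 was at 119 CPM and 96.7 CPM and CDK6 at 137.1 CPM and 136.7 CPM. CDK2 was at 12.9 CPM and 12.3 CPM, and CCND1, cyclin D1, at 451 CPM and 391 CPM (0.868, 0.859 to 0.877).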

How the data were processed

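UMI counts were deposited by the authors as a gene by barcode matrix for each library, produced by Cell Ranger 4 on GRCh38 (per the file headers and the submitters' processing notes) from libraries of the 10x Genomics 3′ v3.1 kit; the sources used here do not name the gene annotation. The counts are not normalized and include empty droplets. The libraries held 199799447 UMIs (D0) and 199817213 UMIs (D21), of which 91.6% and 91.5% were in the cells. For each library the 99th percentile of UMIs was taken over its 5000 largest barcodes, and barcodes with 10% of that value or more, 500 or more genes and no more than 20% mitochondrial UMIs were kept as cells. No doublet caller was run, and an alternative left out the 6% of cells with the most UMIs.

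Counts were summed over cells and given as CPM with exact Poisson intervals; ratios have the exact conditional interval for 2 Poisson counts and shares the Clopper-Pearson interval, all at 95%. With 1 library per condition no p-value was computed, and calls are counts by size. Python 3.11.15, numpy 2.4.6, scipy 1.17.1, pandas 2.3.3 and matplotlib 3.10.9 were used. Ratios were tested on simulated data. Positions are from GENCODE 29, promoters from RefSeq.

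The 7 genes and all lists were chosen with earlier results of these data known. Named were the 7 genes, list genes with at least 20 CPM past a fold of 1.5 and up to 4 further genes of each list, genes with at least 1 CPM within 5 Mb of MTAP, and up to 3 genes correlated at 0.2 or more with a salvage enzyme. HNRNPAB, ESR1, PGR, ERBB2, EPCAM and SMS are named outside this rule, after their values were seen. The same holds for DMRTA1, ELAVL2, IZUMO3, CNTLN, SH3GL2 and SLC24A2 on chromosome 9. Alternatives changed the cell calling, mitochondrial limit, doublets, scaling, depth, filter on low values and fold.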

Additional observations from a re-analysis of the deposited data

How the results depend on the processing

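Under 8 alternatives, 7 planned and 1 (cells weighted equally) chosen after seeing the data, the median log2 ratio of the salvage enzymes lay between 0.04 and 0.07, and APIP, ENOPH1 and ADI1 stayed above 0 in each. APIP was at 0.03 without an alternative, with an interval from -0.005 to 0.07 that included 0, so its direction is not settled. ENOPH1 was at 0.14, and at 0.03, within counting error of 0, with cells thinned to 5000 UMIs and 0.1 with cells weighted equally. MRI1 was at -0.02, with a range from -0.07 to 0.19, the latter in thinned cells, so its direction is not settled. Thinning, which keeps fewer UMIs, left 0 UMIs of the 3 genes at 9p21 at D0 and 1 UMI at D21. The number of pathway genes lower past the fold was 1 (AMD1) in place of 0 without the 6% of cells with the most UMIs, in thinned cells and with cells weighted equally. The number higher was 3 (ODC1, BHMT and BHMT2) in place of 1 with any gene that had a UMI in both libraries, where BHMT had 10 and 22 UMIs and BHMT2 3 and 9 UMIs, and 0 with a fold of 2. Over all genes, 77 were higher and 238 lower, against 197 and 481 with a minimum of 5 CPM, 3895 and 3215 with no minimum and 18 and 50 with a fold of 2, as fewer or more genes could pass.

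No paired analysis was possible because each condition has 1 library. Counting error limits MTAP, CDKN2A and CDKN2B, for which no ratio between the libraries can be given with useful precision, and variation between cultures was not measured for any gene.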
